A study of Mus musculus with 25 samples.

Results

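The cortex of combination-treated amyloid-model mice was compared with the cortex of wild type mice, 5 libraries a side, 10 of the 25 libraries of the series. The combination mice carried the APPswe transgene with a further transgene on a B6C3 background and received (-)-Vestitol at 2.5 mg/kg together with Salviolone at 2.5 mg/kg. The wild type mice were C57BL/6J on vehicle. All mice were male, 6 months old, and injected intraperitoneally each day for 3 months, and 1 library was made from each brain cortex. Transgenic mice on vehicle, here the model control (B6C3, same genotype, 5 libraries), are given beside them to show what the difference from wild type was without treatment. Combination and wild type mice differ in genotype, strain and treatment at once, so these 3 cannot be told apart in this contrast. Only the contrast of combination and model control holds genotype and strain fixed. The combination and the model control were set against the same 5 wild type mice, so a likeness between those 2 contrasts is partly built in, and their values are given side by side without an overlap or a correlation.

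As background, mice of this kind express a human or chimeric amyloid precursor protein with the Swedish mutation from the mouse prion protein promoter, mainly in the central nervous system. They deposit amyloid plaques in cortex and hippocampus. Microglia touching plaques switch, through the receptor Trem2 and its adaptor Tyrobp, to a state rich in lysosomal, lipid-handling and chemokine genes, and nearby astrocytes raise the filament gene Gfap. (-)-Vestitol is an isoflavan and Salviolone a diterpenoid, both plant products.

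Total counts were 64008552 to 86378643 in the wild type libraries, 71606813 to 109776852 in the combination libraries and 77772965 to 93132986 in the model controls, and combination mice 3, 4 and 5 were the deepest. Of 21720 genes, 16515 passed the filter on low counts and were tested with edgeR's quasi-likelihood test. A gene is called raised or lowered when its Benjamini-Hochberg adjusted p lies under 0.05. Levels are CPM, counts scaled to an equal library size, and differences are log2 fold changes ± standard error (SE). Wild type mouse 3 held pituitary RNA (the growth hormone gene Gh at 5316 CPM, against 0 to 3.07 in the other wild type mice). Wild type mouse 2 had the lowest hypothalamus marker level and the highest Arc level of its group. Each count of a gene group below was therefore also taken without both of these mice, and without combination mice 3, 4 and 5.

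Against wild type, 196 genes were raised and 172 lowered in the combination mice, 1.19% and 1.04% of the genes tested. In the model controls 887 (5.37%) were raised and 1026 (6.21%) lowered. Between combination and model control, 1293 (7.83%) were raised and 1178 (7.13%) lowered in the combination. The called genes against wild type had a median absolute log2 fold change of 0.43, and 40 of the 368 passed a 2-fold change. The number of calls depended on single mice. It went down to 65 raised and 58 lowered without wild type mouse 1, to 65 and 66 without combination mouse 4, to 79 and 66 without combination mouse 5, and up to 291 and 317 without wild type mouse 3. With only combination mice 1 and 2 kept, 22 were raised and 22 lowered. The model control counts were 438 and 516 without wild type mouse 4, 564 and 630 without model control mouse 2, and 1420 and 1508 without wild type mouse 2.

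**Figure D1:**
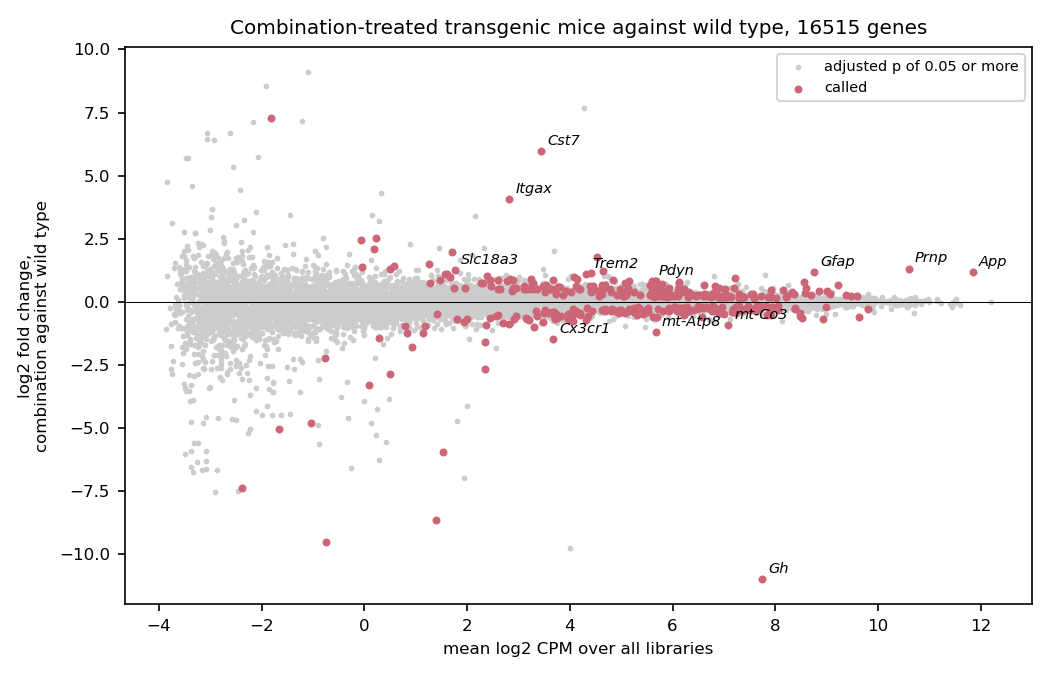
Log2 fold change of combination against wild type (y axis) against mean log2 CPM over all libraries (x axis) for 16515 genes, with called genes in red. App, Prnp and Gfap are abundant genes that lie above 1, Cst7 and Itgax lie highest among the labelled genes, and Gh, high in 1 wild type mouse, lies at -10.99.

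App and Prnp, both abundant in every mouse, had the smallest p-values of all genes raised under the combination. App, the amyloid precursor protein gene (mm39 chr16:84746573-84970654), stood at 3675, 3776, 4169, 3733 and 3439 CPM in combination mice 1 to 5. The wild type mice had 1727, 1800, 1383, 1724 and 1724 CPM, and the model controls 3897, 3903, 4295, 4579 and 4634 CPM. All combination mice lay above all wild type mice, as for 2.13% of all genes tested, and the log2 fold change was 1.17 ± 0.08 (adjusted p = 1.65e-10). The model control differed from wild type by 1.35 ± 0.08, and combination from model control by -0.18 (95% interval -0.33 to -0.03, adjusted p = 0.104, edgeR). Prnp, the prion protein gene that lends the transgene its promoter, had 1666, 1604, 1818, 1591 and 1417 CPM in the combination against 591.2 to 699.5 CPM in wild type (log2 fold change 1.31 ± 0.07, adjusted p = 3.21e-12). Its difference from the model control was -0.20 (95% interval -0.34 to -0.06, adjusted p = 0.0519). Whether counts at App and Prnp come from the endogenous gene or the transgene cannot be told apart in counts per gene.

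The other genes of amyloid processing and clearance mostly sat near wild type. Of the 21 tested, 2 were raised and 0 lowered, against the 1.19% and 1.04% over all genes. Apart from App, the called gene was Clu, the secreted chaperone clusterin (0.21 ± 0.05, adjusted p = 0.0317), whose call was lost without wild type mouse 1, 2 or 5 or combination mouse 1, 4 or 5 (adjusted p = 0.0556 to 0.095). The call of Clu was also lost with combination mice 1 and 2 alone (0.21, adjusted p = 0.299). The beta-secretase Bace1 differed by -0.14, the alpha-secretase Adam10 by -0.05 and the amyloid-degrading enzyme Ide by 0.01, none of them called.

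The plaque-associated state of microglia remained raised in the treated mice. Of its 28 genes, 16 were raised and 0 lowered against wild type under the combination, with a median log2 fold change of 0.64, where the median over all genes was -0.0026. In the model control 18 were raised and 1 lowered, with a median of 0.71. Between combination and model control, 2 were raised and 0 lowered, with a median of -0.06. In bulk tissue, more cells of a type and more RNA per cell cannot be told apart. The count of 16 was 11 to 15 with any single mouse of the contrast left out, 17 without wild type mice 2 and 3 together, 8 when only the 10 libraries of the contrast were fitted, and 6 when combination mice 1 and 2 alone were kept.

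Cst7, the endolysosomal protease inhibitor cystatin F, was close to absent in wild type cortex, with 0.203, 0.176, 0.0730, 0.277 and 0.127 CPM. It reached 9.14, 3.42, 13.3, 17.6 and 11.4 CPM in combination mice 1 to 5, and 6.83, 12.7, 15.4, 12.5 and 12.5 CPM in the model controls. Every combination mouse was far above every wild type mouse, and combination mouse 2 was the lowest of the treated mice. The log2 fold change was 5.97 ± 0.43 against wild type (adjusted p = 1.32e-08), beside 6.10 ± 0.43 for the model control. The difference between combination and model control was -0.12 with a 95% interval of -0.76 to 0.51, so a difference of either sign lies within it.

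Itgax, the integrin subunit CD11c, followed with 5.78, 5.07, 7.39, 10.2 and 4.82 CPM in the combination and 0.132 to 0.774 CPM in wild type (4.07 ± 0.38, adjusted p = 7.93e-07; against the model control -0.29, interval -0.93 to 0.36). Trem2, the lipid-sensing receptor, had 20.03, 12.6, 23.2, 24.2 and 19.4 CPM against 7.92, 7.80, 10.1, 10.3 and 10.8 CPM in wild type. The Trem2 groups did not overlap, with combination mouse 2 nearest to wild type, and the log2 fold change was 1.08 ± 0.16 (adjusted p = 0.000643). It was 1.24 ± 0.16 in the model control, and combination against model control differed by -0.16 (interval -0.48 to 0.17). With combination mice 1 and 2 alone, Trem2 was no longer called (0.80, adjusted p = 0.0994).

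Tyrobp, which signals for Trem2, rose by 1.21 ± 0.16 (adjusted p = 0.00011). Cd68, a lysosomal glycoprotein of phagocytes, rose by 0.99 ± 0.11 (adjusted p = 7.26e-06), with 13.8 to 22.1 CPM in the combination and 7.57 to 10.8 CPM in wild type. The aspartic protease Ctsd rose by 0.67 ± 0.09 (adjusted p = 7.58e-05). The remaining called genes of the group included the beta-glucan receptor Clec7a (2.46), the chemokines Ccl3 (2.53) and Ccl6 (1.99), the leukocyte antigen Cd52 (1.47), lysozyme Lyz2 (1.12) and the lipoprotein lipase Lpl (0.65). Lpl is 1 of the 2 genes also raised against the model control (0.51), and the model control differed from wild type there by 0.15. Apoe (0.23), Spp1 (-0.15), Axl (0.12) and Gpnmb (0.57) were not called against wild type.

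**Figure D2:**
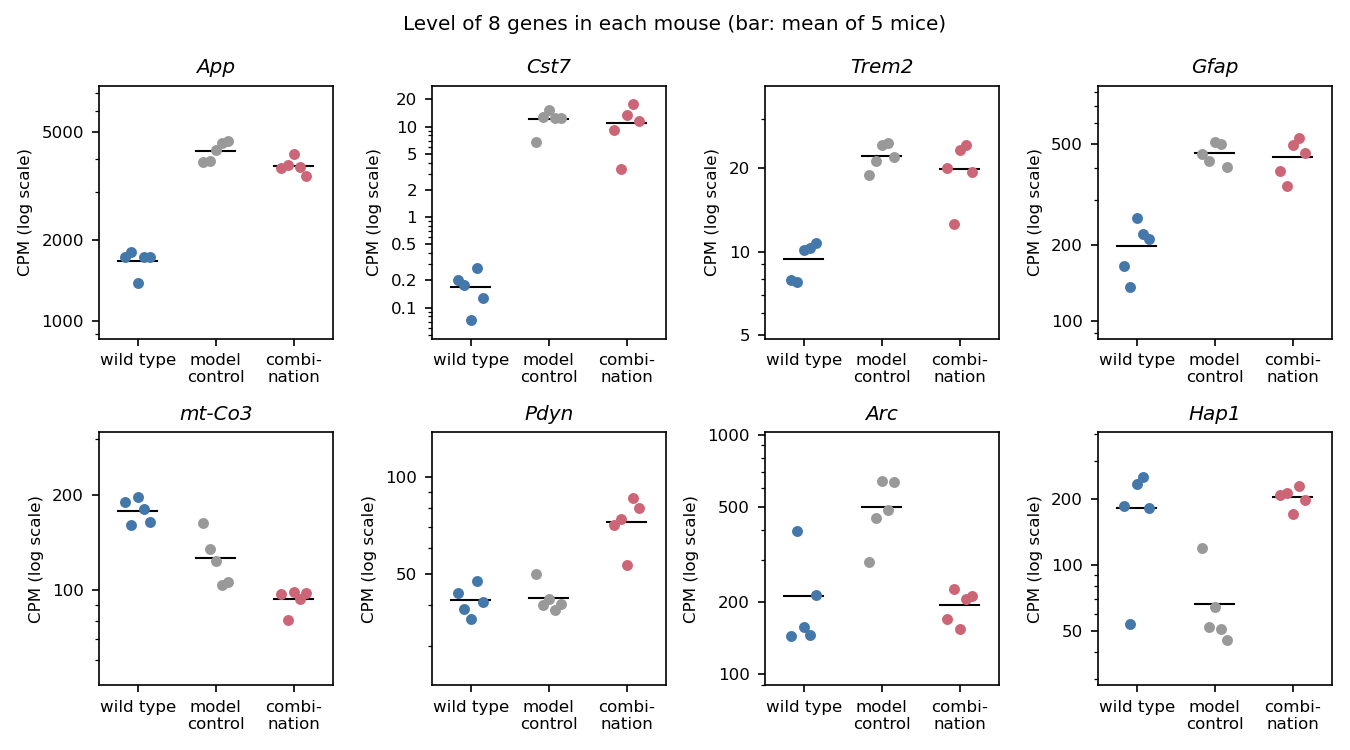
CPM of 8 genes in each mouse (y axes are log scales), with a bar at the mean of the 5 mice of each group. App, Cst7, Trem2 and Gfap are high in both transgenic groups, mt-Co3 is lowest and Pdyn highest in the combination among these 3 groups, and Arc and Hap1 in the combination lie within the range of wild type.

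Among 14 genes of homeostatic microglia, 1 was raised and 1 lowered, with a median of 0.24. Over all genes tested, 1.19% were raised and 1.04% lowered. Cx3cr1, the fractalkine receptor, was lowered by -1.50 ± 0.35 (adjusted p = 0.0233), with 7.41, 6.56, 6.95, 8.63 and 7.77 CPM in the combination and 15.99, 51.0, 10.8, 17.5 and 10.1 CPM in wild type. Model controls had 7.12 to 15.2 CPM and differed from wild type by -1.01 (adjusted p = 0.0602, edgeR). Combination and model control differed by -0.49 (interval -1.20 to 0.23, adjusted p = 0.388), so a difference of either sign lies within that interval. The treated mice all lay below the wild type mice, where mouse 2 stood far above the rest. Without that mouse the log2 fold change was -0.86 (adjusted p = 0.0443). The call was lost in 8 of 25 other settings, among them the 10 libraries of the contrast alone (-1.50, adjusted p = 0.15), combination mice 1 and 2 alone (-1.60, adjusted p = 0.298), the replicate block (-1.40, adjusted p = 0.0591) and the fit without combination mouse 1, 4 or 5 (adjusted p = 0.0527 to 0.0656). With a score of hypothalamic markers as a term, described further on, it was -0.73 (adjusted p = 0.35). P2ry12 (0.25) and Tmem119 (0.24), purinergic and membrane markers of resting microglia, were not called.

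Of 17 genes of phagocytosis and Fc receptors, 5 were raised and 0 lowered, with a median of 0.40 (model control 7 of 17 raised, median 0.44). The 4 with the smallest p were Laptm5 (0.67 ± 0.10), a lysosomal membrane protein of blood-derived cells, Ly86 (0.85 ± 0.16), a partner of a toll-like receptor relative, and the Fc receptors Fcgr3 (0.62 ± 0.12) and Fcgr2b (0.84 ± 0.19). No gene of this list was called between combination and model control by edgeR, DESeq2 or limma, and 0 of 17 had an unadjusted p under 0.05. The count of 5 was 3 without wild type mouse 1, 3 without combination mouse 4 and 0 with combination mice 1 and 2 alone. Csf3r, the granulocyte colony-stimulating factor receptor, was among the 10 raised genes of smallest p over the whole table (0.91 ± 0.13, adjusted p = 0.000238; model control 0.91).

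Complement genes, which tag debris and synapses for uptake, were raised in part. Against wild type 6 of 17 were raised and 0 lowered, namely C1qa (0.83 ± 0.14), C1qb (0.68 ± 0.16), C1qc (0.67), C4b (0.92 ± 0.15), the anaphylatoxin receptor C3ar1 (0.87 ± 0.19) and the integrin subunit Itgb2 (0.66). C1qa had 53.6, 39.6, 59.3, 65.9 and 50.7 CPM in the combination and 25.4, 27.9, 35.0, 32.0 and 31.4 CPM in wild type, with no overlap. The model control had 7 raised and 0 lowered. The median log2 fold change against wild type was 0.16 in the combination and 0.56 in the model control. Between combination and model control the median was -0.01. The proteases C1ra and C1s1 parted from the rest: C1ra differed from wild type by -0.41 (not called) under the combination and by 1.20 (called) in the model control, and both genes were lowered in the combination against the model control (-1.61 and -1.15). The count of 6 was 2 without combination mouse 4, 3 without combination mouse 5, 3 without wild type mouse 1, 3 without wild type mice 2 and 3, and 0 with combination mice 1 and 2 alone.

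Among 22 reactive astrocyte genes, 3 were raised and 0 lowered (median 0.08), and these 3 were large. Gfap had 390.6, 339.3, 495.5, 526.7 and 460.5 CPM in the combination and 165.3, 136.7, 255.0, 220.9 and 210.1 CPM in wild type. All treated mice were above all wild type mice, and the log2 fold change was 1.16 ± 0.15 (adjusted p = 0.00011), beside 1.21 ± 0.15 in the model control. Combination and model control differed by -0.05 (interval -0.35 to 0.25). The protease inhibitor Serpina3n (0.85 ± 0.15) and the asparaginase Aspg (0.85 ± 0.16) were the other 2, and Vim (0.10), Osmr (0.40) and Cd44 (0.25) were not called. With combination mice 1 and 2 alone the count was 1, Gfap (adjusted p = 0.034).

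Of 26 lysosomal genes, 3 were raised and 0 lowered: the hexosaminidase subunit Hexa (0.49 ± 0.07, adjusted p = 0.000598), the glucuronidase Gusb (0.41 ± 0.09) and the cathepsin Ctss (0.62 ± 0.15). In the model control 7 were raised and 1 lowered. Hexa levels were 78.9, 69.3, 75.6, 80.8 and 77.5 CPM in the combination and 50.7, 51.4, 66.6, 53.1 and 50.7 CPM in wild type. The count was 1 without wild type mouse 1, combination mouse 4 or combination mouse 5, and 5 without wild type mouse 3. With combination mice 1 and 2 alone it was 0, and Hexa was not called (0.44, adjusted p = 0.0634, edgeR).

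Interferon-response and immediate-early genes stood near wild type in the treated mice and above it in the untreated model. To show what the promoters of these groups hold, RefSeq promoter sequence (GRCm38.p6) was searched over 250 bases upstream of the first listed start. The interferon-stimulated response element, searched by its consensus on both strands like the other motifs, occurred in 9 of 19 interferon-response promoters (47.4%) and in 3.04% of 27025 promoters. The letters TGACGTCA of the cAMP response element occurred in 2 of 21 immediate-early promoters (9.52%) and in 1.62% of all, and the CArG box in 1 of 21 (4.76%) and 1.4% of all. For the microglial group, the letters GAGGAA, core of the PU.1 motif, occurred in 9 of 23 promoters (39.1%) and 23.1% of all. Matches of different motifs may overlap, and Dusp5 holds 2 adjoining CArG boxes. Of these, 4 promoters are shown 5′ to 3′ because each holds such letters, in capitals, in a gene described here. They were chosen for their matches. The windows of Cst7 and Itgax held 0 matches to GAGGAA and that of Ifit2 0 to the interferon element. The window of Dusp6, an immediate-early gene, held 0 to the cAMP response element or the CArG box. A match is a description of these letters and not evidence of a bound factor.
Ifit1 (chr19:34640639-34640888, plus strand): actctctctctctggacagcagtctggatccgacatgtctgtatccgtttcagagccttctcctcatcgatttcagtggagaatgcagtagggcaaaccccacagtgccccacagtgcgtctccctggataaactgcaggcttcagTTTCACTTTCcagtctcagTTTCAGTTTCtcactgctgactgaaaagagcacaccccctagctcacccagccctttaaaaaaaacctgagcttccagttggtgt
Dusp1 (chr17:26508473-26508722, minus strand): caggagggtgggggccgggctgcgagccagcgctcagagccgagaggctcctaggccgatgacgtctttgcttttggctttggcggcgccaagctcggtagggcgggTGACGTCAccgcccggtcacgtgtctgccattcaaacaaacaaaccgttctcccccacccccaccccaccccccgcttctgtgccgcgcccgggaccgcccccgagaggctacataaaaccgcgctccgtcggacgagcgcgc
Dusp5 (chr19:53528895-53529144, plus strand): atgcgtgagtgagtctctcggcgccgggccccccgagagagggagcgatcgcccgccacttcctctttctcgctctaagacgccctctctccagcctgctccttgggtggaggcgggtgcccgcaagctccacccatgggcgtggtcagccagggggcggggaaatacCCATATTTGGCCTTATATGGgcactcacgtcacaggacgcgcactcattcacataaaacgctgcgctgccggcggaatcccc
Cd68 (chr11:69666171-69666420, minus strand): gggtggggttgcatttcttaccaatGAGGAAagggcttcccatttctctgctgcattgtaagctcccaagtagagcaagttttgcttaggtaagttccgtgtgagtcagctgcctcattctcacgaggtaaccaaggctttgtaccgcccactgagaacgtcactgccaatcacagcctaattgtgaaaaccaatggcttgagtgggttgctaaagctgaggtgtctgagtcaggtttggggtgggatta

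None of the 24 interferon-response genes was called between combination and wild type by edgeR, DESeq2, limma-voom or limma on FPKM. With an unadjusted p under 0.05 there was 1 raised and 0 lowered, and the median log2 fold change was 0.10. In the model control 8 were raised and 0 lowered, with a median of 0.55. That 8 was 1 without model control mouse 5, 3 without model control mouse 2 or wild type mouse 4, 4 without wild type mouse 1 or 5, 1 on the 10 libraries of that contrast, and rose to 13 when wild type mouse 3 was omitted. The test between the transgenic groups called 5 of 24 lower in the combination and 0 higher, with a median of -0.48: Ifit1, Ifit2, Trim30a, Ifih1 and Parp14. This count of 5 was 2 without model control mouse 5, 3 without combination mouse 1 or 2, and 8 without combination mouse 4.

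Ifit1, an interferon-induced protein that binds foreign RNA and whose promoter above holds 2 such elements, had 1.26, 1.07, 2.35, 1.90 and 1.10 CPM in the combination. Wild type mice had 2.06, 1.41, 1.80, 1.38 and 1.52 CPM, and model controls 2.96, 3.35, 2.20, 2.38 and 4.77 CPM. The treated and wild type ranges overlapped, and combination mouse 3 reached into the model control range. The log2 fold change was -0.09 ± 0.25 against wild type (adjusted p = 0.914) and -1.02 ± 0.25 against the model control (adjusted p = 0.00699). Cxcl10, an interferon-induced chemokine, is not among the 24 and was counted with cytokines and toll-like receptors. Its level lay in between, with 0.182 to 0.905 CPM in the combination, 0 to 0.188 in wild type and 0.630 to 1.48 in the model control. Its difference from wild type missed the threshold by edgeR (1.90 ± 0.54, adjusted p = 0.06) and passed it by DESeq2 (1.91, adjusted p = 0.00811), with a stricter filter (adjusted p = 0.0471) and without combination mouse 2 (adjusted p = 0.0396). Its difference from the model control was -1.20 ± 0.50 (adjusted p = 0.11, edgeR). In that list of 17 tested genes, edgeR called 0 against wild type and DESeq2 3 raised. There limma-voom and limma on FPKM each called 1 raised, and none of these tools called a gene lowered. Of 17 antigen presentation genes 0 were called by edgeR against wild type, with 1 raised and 1 lowered at an unadjusted p under 0.05, 0 by DESeq2, 0 by limma on FPKM and 1 raised by limma-voom. The light chain B2m differed by 0.36 ± 0.16 (adjusted p = 0.251), and by 0.74 ± 0.16 in the model control (adjusted p = 0.00486). B2m was called against wild type without wild type mouse 3 (0.52, adjusted p = 0.046), without wild type mice 2 and 3 (0.66, adjusted p = 0.0231) and by limma-voom (0.53, adjusted p = 0.0436).

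Immediate-early genes are switched on within minutes of neuronal firing or handling. Of 28, edgeR called 0 in the combination against wild type, with 2 raised and 1 lowered at an unadjusted p under 0.05, 0 called by DESeq2 and by limma on FPKM, and 1 raised by limma-voom. The median was -0.14. In the model control 10 were raised and 1, Jun, lowered, with a median of 0.47, and the 10 were 5 on the 10 libraries of that contrast. Between combination and model control 14 were lowered and 0 raised, with a median of -0.62. That count of 14 stayed between 13 and 16 with any single mouse of that contrast left out and was 3 with combination mice 1 and 2 alone.

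Arc, a synaptic scaffold gene of recent activity, had 169.7, 226.6, 154.1, 205.4 and 212.2 CPM in the combination. Wild type mice had 143.9, 394.4, 157.7, 145.0 and 212.9 CPM and model controls 293.7, 446.3, 637.1, 486.1 and 634.2 CPM. All treated mice were below all model controls and within the wild type range, where mouse 2 stood apart. The log2 fold change was -0.12 ± 0.33 against wild type (adjusted p = 0.904) and -1.37 ± 0.33 against the model control (adjusted p = 0.00812). The transcription factors Egr1 (-0.04 against wild type, -0.74 against the model control, adjusted p = 0.00901) and Fos (-0.33 and -1.02, adjusted p = 0.017) and the phosphatases Dusp1 (-0.29 and -0.78, adjusted p = 0.00391) and Dusp5 (-0.06 and -0.86, adjusted p = 0.00254) were likewise called against the model control and not against wild type. Inhba, the activin A subunit, was the gene of smallest p against wild type (0.45 ± 0.16, adjusted p = 0.146) and was called without wild type mouse 2 (adjusted p = 0.0287). In the model control against wild type, edgeR called Arc (1.24, adjusted p = 0.0184) and Egr1 (0.70, adjusted p = 0.0169). It did not call Fos (0.69, adjusted p = 0.118) or Dusp1 (0.50, adjusted p = 0.0654) there.

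**Figure D3:**
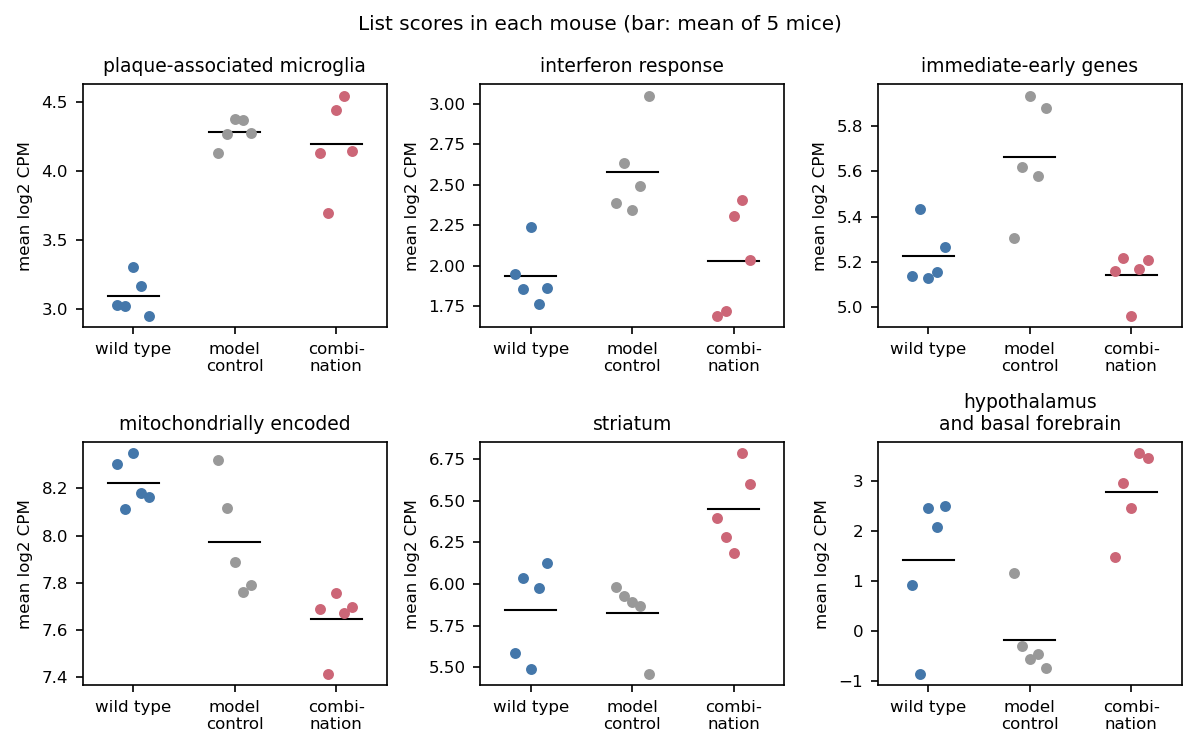
Mean log2 CPM of the tested genes of 6 lists in each mouse (y axes), with a bar at the mean of the 5 mice. For plaque-associated microglia, combination mice 1, 3, 4 and 5 lie with the model control. Combination mouse 2 (3.70) lies between the model controls (4.13 to 4.38) and the highest wild type mouse (3.31). The combination mice lie near wild type for the interferon and immediate-early lists, and lowest of these 3 groups for mitochondrially encoded genes. All 5 lie above all model controls for striatum and for hypothalamus and basal forebrain.

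Transcripts of the mitochondrial genome were lower in the combination mice than in wild type. Of 13 mitochondrially encoded protein genes, 11 were lowered and 0 raised against wild type, with a median of -0.54, and for 12 of 13 all 5 treated mice lay below all 5 wild type mice (2.20% of all genes tested did so). The model control had 2 lowered and 0 raised (median -0.20), and 6 of 13 were lowered in the combination against the model control. mt-Co3, a subunit of cytochrome c oxidase, had 97.5, 80.2, 98.4, 93.6 and 98.3 CPM in the combination and 190.1, 160.2, 197.0, 180.2 and 164.1 CPM in wild type. Model controls spread between them, with 162.8, 134.7, 123.2, 103.5 and 105.8 CPM. The log2 fold change was -0.93 ± 0.12 (adjusted p = 7.58e-05), beside -0.50 ± 0.11 in the model control. The ATP synthase subunit mt-Atp8 was lowered by -1.20 ± 0.16, mt-Cytb of complex III by -0.68 ± 0.11 and mt-Nd5 of complex I by -0.60 ± 0.10, and the 2 genes not called were mt-Co1 (-0.06) and mt-Nd6 (-0.37). The count of 11 was 7 without wild type mouse 1, 6 without wild type mice 2 and 3, and 4 with combination mice 1 and 2 alone. Without model control mouse 1 the model control had 7 lowered, and 3 were lowered in the combination against it. The share of all counts on these genes was 0.475% to 0.604% in the combination and 0.637% to 0.790% in wild type.

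Nuclear genes of the same respiratory complexes were called in both directions, where 1.19% of all genes tested were raised and 1.04% lowered. Of 24, 3 were raised, Ndufb5 (0.26 ± 0.05), Ndufa5 (0.35 ± 0.07) and Atp5o (0.31 ± 0.08), and 1 was lowered, Uqcrb (-0.58 ± 0.15). The model control had 4 raised and 0 lowered. Without wild type mouse 1 the 3 raised became 1, and the call of Uqcrb was lost (adjusted p = 0.064). With combination mice 1 and 2 alone the 3 raised became 0. The call of Uqcrb was lost in 10 of 25 other settings. Among them were combination mice 1 and 2 alone (-0.38, adjusted p = 0.515) and the 10 libraries of the contrast alone (-0.59, adjusted p = 0.0884).

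Markers of the striatum, which lies beneath the cortex, were raised in the combination against both other groups. Their summed level was 2303 to 3145 CPM in the combination, 1423 to 2115 CPM in wild type and 1638 to 2101 CPM in the model control, and no marker was at 0 in every mouse of a group. Slc17a7, the vesicular glutamate transporter of cortical excitatory neurons, stood at 838.9 to 1415 CPM in these 15 mice. Of 15, 7 were raised and 0 lowered against wild type (median 0.64), 0 were called in the model control by edgeR, DESeq2 or limma on FPKM (median -0.06; 1 raised and 1 lowered by limma-voom, and likewise at an unadjusted p under 0.05), and 9 were raised in the combination against the model control (median 0.63). Pdyn, the precursor of the dynorphin opioid peptides, had 70.7, 73.7, 53.3, 85.7 and 79.9 CPM in the combination, 43.7, 38.9, 36.2, 47.5 and 40.8 CPM in wild type and 38.8 to 49.9 CPM in the model control. Its log2 fold change was 0.81 ± 0.11 against wild type (adjusted p = 0.000181) and 0.79 ± 0.11 against the model control (adjusted p = 0.000146). The adenosine receptor Adora2a rose by 0.76 ± 0.16, the tachykinin precursor Tac1 by 0.83 ± 0.19 and the phosphodiesterase Pde10a by 0.76 ± 0.17, all known for high levels in striatal medium spiny neurons. The dopamine receptors Drd1 (0.22) and Drd2 (0.64) were not called against wild type. The count of 7 was 1 without wild type mouse 1, 2 without combination mouse 4 or 5, 2 on the 10 libraries of the contrast, 1 without wild type mice 2 and 3, and 1 with combination mice 1 and 2 alone.

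Cholinergic genes shifted in the same mice. Of 14, 4 were raised against wild type and 0 lowered (median 0.38), and 8 were raised and 1 lowered against the model control. Slc18a3, the vesicular acetylcholine transporter, had 6.95, 6.31, 5.08, 8.69 and 8.14 CPM in the combination and 1.94, 1.47, 2.41, 5.01 and 3.93 CPM in wild type, without overlap but with wild type mouse 4 close to combination mouse 3. Its log2 fold change was 1.25 ± 0.31 (adjusted p = 0.0317) and 1.67 ± 0.32 against the model control (adjusted p = 0.00104). Its call against wild type was lost without wild type mouse 1, 2 or 3, or combination mouse 1, 4 or 5 (adjusted p = 0.0521 to 0.103). Acetylcholinesterase, Ache, rose by 0.57 ± 0.10 (adjusted p = 0.00396) and by 0.84 ± 0.10 against the model control (adjusted p = 5.55e-05). The muscarinic receptor Chrm2 rose by 0.59 ± 0.11 and by 0.70 ± 0.11 in the model control, with -0.11 between them. The count of 4 was 2 without wild type mouse 1, combination mouse 4 or combination mouse 5, 2 without wild type mice 2 and 3, and 0 with combination mice 1 and 2 alone.

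Among 18 genes of inhibitory neurons, 4 were raised and 2 lowered. Gad2, which makes the transmitter GABA, had 317.7, 314.8, 315.0, 415.3 and 376.5 CPM in the combination and 235.9, 221.6, 233.2, 281.9 and 278.6 CPM in wild type (0.48 ± 0.10, adjusted p = 0.0138). The vesicular GABA transporter Slc32a1 rose by 0.50 ± 0.09, and Gad1 and Tac1 were the other 2 raised. The interneuron peptide Vip was lowered by -0.48 ± 0.10 (adjusted p = 0.013), while the model control was 0.35 above wild type, and combination fell below model control by 0.83 on the log2 scale (adjusted p = 5.55e-05). Leaving out wild type mouse 1 or combination mouse 4 left 1 raised and 1 lowered, leaving out combination mouse 5 left 2 raised, leaving out wild type mice 2 and 3 left 1 raised, and keeping combination mice 1 and 2 alone left 0 of either. In the model control 5 of the 18 were raised and 3 lowered against wild type. Between combination and model control, 7 were raised and 7 lowered in the combination. With combination mice 1 and 2 alone these 7 lowered became 2. Of 20 genes of excitatory synapses, edgeR called 0 raised and 1 lowered, the glutamate receptor subunit Grin2b (-0.31 ± 0.07, adjusted p = 0.0129). DESeq2 called 5 lowered, limma-voom 3 and limma on FPKM 2, with 0 raised by any of them, and 8 were lowered at an unadjusted p under 0.05. The edgeR count was 0 without wild type mouse 1 or combination mouse 4, 4 when wild type mouse 3 was omitted and 4 with the replicate block. Grin2b was not called with combination mice 1 and 2 alone (-0.21, adjusted p = 0.368). In the model control 1 of the 20 excitatory genes was raised and 0 lowered against wild type. Between combination and model control, 1 was raised and 7 lowered in the combination, and the 7 became 1 with combination mice 1 and 2 alone.

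Markers of hypothalamus and basal forebrain moved with these neuronal groups between the transgenic mice. Their summed level over 16 genes was 537.2, 616.8, 467.1, 836.9 and 752.9 CPM in the combination, 440.3, 139.8, 689.2, 652.6 and 515.0 CPM in wild type and 301.4, 147.2, 155.0, 129.7 and 115.6 CPM in the model control. The combination lay above the model control in all mice and overlapped with wild type. Hap1, a huntingtin-associated protein of hypothalamic neurons, had 208.9, 213.1, 171.1, 230.6 and 199.6 CPM in the combination, 187.4, 53.8, 234.4, 253.1 and 182.1 in wild type and 119.4, 52.4, 64.0, 50.9 and 45.2 in the model control. It differed from wild type by 0.17 ± 0.29 (adjusted p = 0.837), and from the model control by 1.62 ± 0.30 (adjusted p = 0.00114). Against wild type, edgeR and DESeq2 called 0 of the 16, limma-voom 0 and limma on FPKM 1 raised, with 4 raised and 1 lowered at an unadjusted p under 0.05. Against the model control 12 were raised and 0 lowered, and the neuropeptide genes Oxt (4.62) and Hcrt (7.68) were among the largest. None of the 16 genes was at 0 in every mouse of a group.

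With the mean log2 CPM of these 16 genes added to the model as a term, 85 genes were raised and 79 lowered between combination and wild type. The plaque-associated microglia count was then 14, the mitochondrially encoded count 11, the striatum count 1, the cholinergic count 2, the inhibitory neuron count 1 raised and 1 lowered, the complement count 2, the phagocytosis count 3, the lysosome count 1 and the reactive astrocyte count 3. On the 10 libraries of the contrast alone and without this term, the phagocytosis count was 3, the cholinergic count 2, the inhibitory neuron count 2 raised and 1 lowered and the nuclear respiratory count 1 raised. With the score as a term, edgeR called 0 genes between combination and model control, with 554 raised and 605 lowered at an unadjusted p under 0.05. The other tools were not run with this term. The score does not overlap between those 2 groups, so it and the treatment cannot be told apart there. Between model control and wild type, whose scores overlap, the raised interferon-response genes went from 8 to 0 with this term, the raised immediate-early genes from 10 to 1 and the complement genes from 7 to 2.

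**Figure D4:**
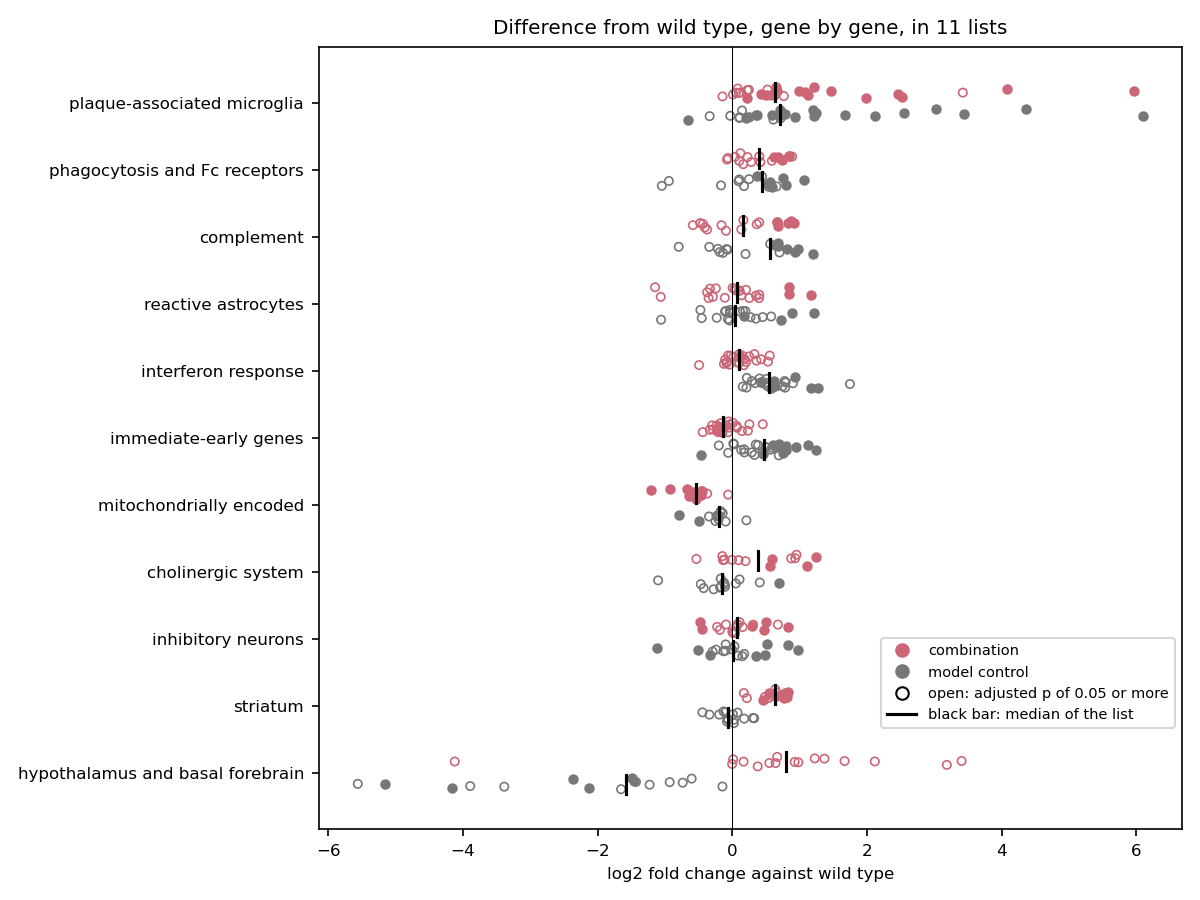
Log2 fold change against wild type (x axis) of each tested gene in 11 lists (y axis), for the combination (red) and the model control (grey), filled where called, with a black bar at the list's median. The 2 groups share their wild type mice. The microglial medians are 0.64 and 0.71, those of the immediate-early list -0.14 and 0.47, and those of the striatum 0.64 and -0.06.

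Marker lists of other neighbouring tissue gave few calls between combination and wild type. There, edgeR called 0 of 15 choroid plexus, 0 of 14 meningeal, 0 of 15 hippocampal, 0 of 14 thalamic and 0 of 10 tested blood cell genes. DESeq2 called 0 in each of them, limma-voom 0 except 1 lowered meningeal gene, and limma on FPKM 0. Unadjusted p-values under 0.05 numbered 1 raised and 1 lowered for choroid plexus, 1 lowered each for meninges, hippocampus and blood cells, and 0 for thalamus. The hippocampal markers did differ in the other contrasts: 1 was raised and 6 lowered in the model control against wild type, and 4 were raised and 2 lowered in the combination against the model control (7 raised and 2 lowered by DESeq2). These 15 genes summed to 398.7 to 470.1 CPM in combination mice, 220.4 to 341.3 CPM in model controls and 246.1 to 516.3 CPM in wild type mice. Summed choroid plexus levels were 22.2 to 47.0 CPM in wild type, 22.3 to 83.5 in the combination and 25.01 to 504.9 in the model control. The call of Gh, -10.99, rested on wild type mouse 3 alone and was lost without it (-1.29, adjusted p = 0.732). Of 14 ependymal genes 2 were lowered, the ciliary dyneins Dnah5 (-0.64 ± 0.14) and Dnah9 (-0.58 ± 0.15), with -0.95 and -0.59 in the model control. That count was 0 when combination mouse 4 or 5 was left out and on the 10 libraries of the contrast, and 1 when combination mouse 1 or 3 or wild type mouse 1, 3 or 4 was. With combination mice 1 and 2 alone it was 0.

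Several single genes outside these groups were among the 10 lowered with the smallest p. Ube3a, the ubiquitin ligase of Angelman syndrome, had 56.5, 65.0, 60.1, 54.5 and 52.5 CPM in the combination and 84.4, 80.6, 78.5, 80.5 and 87.1 CPM in wild type, without overlap (-0.51 ± 0.07, adjusted p = 9.2e-05). The model control differed from wild type by -0.14 (adjusted p = 0.18), and combination from model control by -0.37 ± 0.07 (adjusted p = 0.000689). The transcription factor Nfib was placed alike, with -0.46 ± 0.07 against wild type (adjusted p = 0.000784), -0.03 in the model control and -0.43 ± 0.07 between them (adjusted p = 0.000457). The receptor kinase Ltk (-0.46 ± 0.08) was called in both transgenic groups.

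Of the 10 genes of smallest p between combination and model control, 5 in each direction, 4 were also called against wild type by edgeR: Ache and Vip, described above, and Rock2 and Rgs6. Susd2, a sushi-domain membrane protein, had 24.7, 24.96, 24.5, 25.9 and 26.3 CPM in the combination and 24.3, 16.4, 20.7, 25.8 and 19.6 CPM in wild type, where all model controls were at 11.9 to 14.3 CPM. It was raised against the model control by 0.97 ± 0.11 (adjusted p = 5.55e-05) and differed from wild type by 0.24 ± 0.11 (adjusted p = 0.258). The vesicle amine transport protein Vat1 (0.98 against the model control, 0.40 against wild type), Bex1 (0.71 and 0.29) and Maged1 (0.36 and 0.12) were likewise not called against wild type. On the lowered side the kinase Rock2 passed wild type, at -0.49 ± 0.06 against the model control and -0.27 ± 0.06 against wild type (adjusted p = 0.0159), as did Rgs6, a regulator of G-protein signalling (-0.70 and -0.33, adjusted p = 0.046), whereas Strbp (-0.61 and -0.27) and Dnajc21 (-1.10 and -0.29) were not called against wild type.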

How the data were processed

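Libraries of total RNA from brain cortex, 1 per mouse, were compared between 5 combination-treated transgenic and 5 wild type mice, with 5 vehicle-treated transgenic mice beside them. Adapters were trimmed with Trim Galore and reads aligned with STAR to mm39, per the submitters' processing notes; no version, counting tool, strand setting or annotation is stated there. The labels name a TruSeq and a SMARTER kit for the same libraries. The authors deposited 1 table of raw read counts per gene and 1 of FPKM, values scaled to gene length and library size, with 1 column per library. Of the count values from 4 to 39, 44.3% were multiples of 4, where 25% would be even use; the reason is not stated, and a fit on counts divided by 4 was an alternative. Gene coordinates are those of the files (mm39), and promoter sequences are from RefSeq on GRCm38.p6, with no conversion between the builds.

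All 25 libraries were fitted together in edgeR 4.0.16 (R 4.3.3; filterByExpr with a minimum count of 10, TMM, robust quasi-likelihood F test, two-sided, 1 coefficient per group, no covariate), with Benjamini-Hochberg adjustment over 16515 genes; the standard error is the size of the log2 fold change over the root of F, and 95% intervals use the t quantile. Labels do not say that mice of a group came from separate litters or cages, so p-values measure the spread between these samples. Total counts ran from 59376320 to 109776852 over the 25 libraries, 3 counts corresponded to 0.0273 to 0.0505 CPM, and any 2 libraries had at most 0.338% of counts identical. CPM and list scores (mean log2 CPM, prior count 2) were computed from TMM-scaled library sizes. Alternatives were DESeq2 1.42.0, limma 3.58.1 with voom weights and on log2(FPKM + 0.1) or log2(FPKM + 1), other filters and scalings, and left-out libraries. The fitting was tested on simulated data.

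Named genes are App, Prnp, Cst7, Trem2, Gfap and Hap1, the 10 genes a direction of smallest p against wild type and a mean log2 CPM of 1 or more, from each of 39 lists up to 4 called genes (or else the 2 of smallest p), and the 5 a direction of smallest p against the model control. Other list genes named in the text were chosen after their values were seen. Some genes that meet these rules, and part of the genotype, are not reported here. The comparison, members and lists were chosen with earlier results of these data known.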

Additional observations from a re-analysis of the deposited data

Results flagged for a closer look

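In groups of 5 mice, 11 of 140 sets of values held 1 mouse whose gap to the next exceeds Dixon's 95% critical value, where chance gives about 1 in 20. Wild type mouse 3 was the odd one for App (1383 CPM, next 1724), Hexa (66.6 CPM, next 53.1), the pituitary score (6.38, next -0.59), the reactive astrocyte score (2.65, next 2.10) and the inhibitory neuron score (6.15, next 6.28). Wild type mouse 2 stood apart for Cx3cr1 (51.0 CPM, next 17.5) and Arc (394.4 CPM, next 212.9). Wild type mouse 5 was low for the homeostatic microglia score (4.19, next 4.38). In the combination, mouse 2 was low for mt-Co3 (80.2 CPM, next 93.6) and for the mitochondrially encoded score (7.41, next 7.67). Combination mouse 3 was low for the immediate-early score (4.96, next 5.16).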

How the results depend on the processing

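Counts of called genes are given as raised and lowered. Combination against wild type (196 and 172) gave 371 and 360 by DESeq2, 388 and 398 by limma-voom, 60 and 86 on the 10 libraries of the contrast alone, 85 and 79 with the hypothalamus score as a covariate, and 22 and 22 without combination mice 3, 4 and 5. Leaving out 1 mouse at a time gave 65 to 291 raised and 58 to 317 lowered. Model control against wild type (887 and 1026) gave 159 and 190 on its 10 libraries alone and 59 and 46 with the covariate, and 438 to 1420 raised and 516 to 1508 lowered with 1 mouse left out. Combination against model control (1293 and 1178) gave 0 and 0 with the covariate by edgeR (554 and 605 at an unadjusted p under 0.05), 514 and 400 without combination mice 3, 4 and 5, and 936 to 1336 raised and 859 to 1252 lowered with 1 mouse left out. The cause of these shifts was not tested. The settings that leave out mice or groups also hold fewer samples. Other scalings and filters, counts divided by 4, FPKM and removal of mitochondrial genes kept all 6 counts within 1.5 times.

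Replicate numbers did not pair the mice: the correlation of same-numbered deviations was -0.04 to 0.06 between combination and wild type, and 2 of 5 mice correlated best with their own number. A replicate block gave 215 and 227 for combination against wild type, 915 and 988 for model control against wild type and 1274 and 1181 between them.

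App, Prnp, Cst7, Itgax, Cd68, Ctsd, Tyrobp, Gfap, Csf3r, Pdyn, Ube3a and mt-Co3 kept direction and call against wild type under every alternative run for them. Over all named genes and settings 222 calls were lost, 38 gained and 0 reversed; these settings include fits without wild type mice 2 and 3, chosen after seeing the data. The setting without combination mice 3, 4 and 5 was not run for model control against wild type, which does not use them.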

Other observations

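Genes of protein folding were described in no comparison above. Of 18 heat shock genes 2 were raised in the combination against wild type, the co-chaperones Stip1 (0.30 ± 0.07, adjusted p = 0.0157, edgeR) and Hsph1 (0.34 ± 0.09, adjusted p = 0.0327), and 0 were lowered; the model control had 6 raised. Both calls were lost without wild type mouse 1, combination mouse 4 or combination mouse 5. With combination mice 1 and 2 alone the heat shock count was 0. Of 18 unfolded protein response genes 1 was raised, the endoplasmic reticulum protein Sdf2l1 (0.76 ± 0.17, adjusted p = 0.0157), beside 5 in the model control, and 3 were raised without wild type mouse 3. The call of Sdf2l1 was lost with combination mice 1 and 2 alone (0.76, adjusted p = 0.187).

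Further single calls were Fdps (0.31 ± 0.06, adjusted p = 0.0113), a farnesyl diphosphate synthase and the 1 raised of 18 cholesterol synthesis genes, the metallothionein Mt1 (0.31 ± 0.07, adjusted p = 0.0157) and the tight junction gene Cldn5 (0.50 ± 0.14, adjusted p = 0.0493). Cldn5 was the 1 called of 14 endothelium genes, whose median log2 fold change was -0.02. The call of Mt1 was lost without wild type mouse 1 or combination mouse 5, and that of Cldn5 without any of wild type mice 1, 4 and 5 and combination mice 1, 3, 4 and 5. Of 16 myelin genes edgeR called 0 (1 raised at an unadjusted p under 0.05, 0 by DESeq2, limma-voom and limma on FPKM), and of 9 tested genes that vary by strain (C57BL/6J against C3H) it called 0 (1 raised at an unadjusted p under 0.05, 0 by the other 3).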
